A study of Mus musculus with 6 samples.

Results

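The matrix metalloproteinases (Mmp), the membrane-bound ADAM proteases (Adam), the secreted ADAMTS proteases (Adamts), their protease-like relatives (Adamtsl) and the tissue inhibitors of metalloproteinases (Timp) were followed through captured, methylated DNA of the newborn mouse heart. Members were all regions of the deposited table whose gene symbol begins with one of these 5 names and a digit. The rule found 369 regions of 213957 in the table, and no measured value entered it. No interval was repeated among them. They carry 59 genes of the 85 protein-coding symbols in RefSeq that fit the rule: 15 Mmp genes with 52 regions, 18 Adam genes with 76, 18 Adamts genes with 182, 5 Adamtsl genes with 47 and 3 Timp genes with 12. All 369 were classed as peaks, short stretches of dense reads, from the borders of the intervals and the gene names. The remaining 26 symbols, Timp1, Adam10, Adamts1, Mmp3 and Mmp13 among them, were not analysed here.

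Ventricles of male C57BL/6 mice were compared between postnatal day 1 (P1) and day 14 (P14), with 3 libraries at each age and no treatment. The source label says left ventricle, while the protocol describes ventricles freed of atria with the septum left in place. The series calls the libraries biological replicates and does not say whether a library is 1 animal or several. Methyl-CpG binding domain sequencing (MBD-seq) captures DNA fragments that hold methylated CpG dinucleotides. It gives reads per region, not a methylation level per site, and it measures no expression, so the tissue could not be checked from expressed markers. Whole ventricle is a mixture, and a change in the methylation of 1 cell type cannot be told apart from a change in the share of that cell type.

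Metalloproteinases use a zinc ion to cut proteins. The MMPs cut collagens and other matrix proteins, the ADAMs release growth factors and receptors from the cell surface, and the ADAMTS proteases trim proteoglycans and process procollagens. The TIMPs block these enzymes. In the heart after birth the matrix is rebuilt as muscle cells stop dividing and enlarge. CpG-rich gene starts are as a rule free of methylation, while CpG sites within gene bodies are mostly methylated.

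Most member peaks lay within the span of the gene that names them, and few were centred near its start. Of the 369 peaks, 346 were inside the RefSeq span of the gene, 7 crossed its edge and 16 lay outside, and 29 were also assigned to another symbol. RefSeq start windows (GRCm38.p6, 250 bases before to 50 after a start) were at hand for 35 of the 59 genes, with 39 starts. A peak covered 2 of the 39 windows (5.13%), both starts of Mmp7 under 1 peak, against 5.93% of 21262 protein-coding windows. The member windows came only from genes with a peak, while the protein-coding windows include genes without one, so the sets are unlike. Of the 23 member windows with 15 or more CpG, 0 lay under a peak, against 163 of 9956 protein-coding windows of that kind (1.64%). The dinucleotide CG, which reads the same on both strands, occurred in 38 of the 39 member windows (97.4%) and in 95.4% of protein-coding ones. Among 253 member peaks with a start to measure from, 8 centres lay within 2 kb of it (3.16%), against 7.23% of 50813 peak and gene pairs over the whole table, and the median distance was 52.0 kb against 25.3 kb. These shares are descriptions without a test. The share inside a gene span was not computed for all named peaks. Gene length did not enter the distances, and the member spans ran from 3.1 kb (Adam1a) to 914.5 kb (Adamtsl1).

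The 250 bases before the start are given here for Mmp7, the start under a peak, and for the 4 genes with a peak that passed the test between ages and a RefSeq start entry, 5′ to 3′ on the strand of the gene, with each CpG in capitals. Mmp7 encodes matrilysin, and its stretch (chr9:7691840-7692089, plus strand) holds 0 CpG. The stretches of Timp3 (chr10:86300162-86300411, plus strand) and Adamtsl5 (chr10:80348449-80348698, minus strand) hold 18 and 22. Those of Adamts9 (chr6:92943535-92943784, minus strand) and Adamts3 (chr5:89883335-89883584, minus strand) hold 22 and 35.
Mmp7: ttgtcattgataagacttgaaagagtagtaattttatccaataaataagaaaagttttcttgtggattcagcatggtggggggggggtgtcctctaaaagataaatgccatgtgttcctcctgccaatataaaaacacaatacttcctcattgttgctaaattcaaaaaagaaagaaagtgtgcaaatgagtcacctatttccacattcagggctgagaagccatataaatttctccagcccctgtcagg
Timp3: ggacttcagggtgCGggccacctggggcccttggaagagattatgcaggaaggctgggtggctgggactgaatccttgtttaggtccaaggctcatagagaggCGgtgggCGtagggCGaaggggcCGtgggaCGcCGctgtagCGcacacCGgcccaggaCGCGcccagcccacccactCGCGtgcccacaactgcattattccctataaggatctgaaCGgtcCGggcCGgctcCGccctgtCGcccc
Adamtsl5: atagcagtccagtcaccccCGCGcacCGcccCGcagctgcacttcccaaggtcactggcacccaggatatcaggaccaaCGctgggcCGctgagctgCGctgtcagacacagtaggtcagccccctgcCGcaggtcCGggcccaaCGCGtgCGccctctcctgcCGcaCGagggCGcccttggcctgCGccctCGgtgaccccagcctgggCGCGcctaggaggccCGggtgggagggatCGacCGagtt
Adamts9: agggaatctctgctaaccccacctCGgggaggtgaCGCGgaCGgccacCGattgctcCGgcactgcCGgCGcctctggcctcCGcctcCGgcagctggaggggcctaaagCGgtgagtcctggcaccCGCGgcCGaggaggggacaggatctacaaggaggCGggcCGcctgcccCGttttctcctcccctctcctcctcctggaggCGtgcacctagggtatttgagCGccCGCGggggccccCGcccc
Adamts3: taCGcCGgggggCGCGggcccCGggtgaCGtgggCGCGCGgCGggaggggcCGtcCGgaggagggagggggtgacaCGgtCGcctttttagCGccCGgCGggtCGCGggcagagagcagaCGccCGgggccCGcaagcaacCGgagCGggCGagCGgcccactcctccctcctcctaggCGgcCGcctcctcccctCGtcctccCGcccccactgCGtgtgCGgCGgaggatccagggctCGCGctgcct

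The peak over the Mmp7 starts (chr9:7692061-7692583) begins just upstream of the first start and covers the second, where the window holds 7 CpG. It held 3, 12 and 3 reads in P1 replicates 1 to 3 and 28, 13 and 11 in P14 replicates 1 to 3, and its log2 change of 0.41 (SE 0.57) did not pass the test. The CpG-dense starts of the other 4 genes had their nearest peak of any gene 5120 bp (Timp3), 1969 bp (Adamtsl5), 4647 bp (Adamts9) and 21360 bp (Adamts3) away. The Adam17 start had the widest gap among the 39, 39377 bp.

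**Figure D1:**
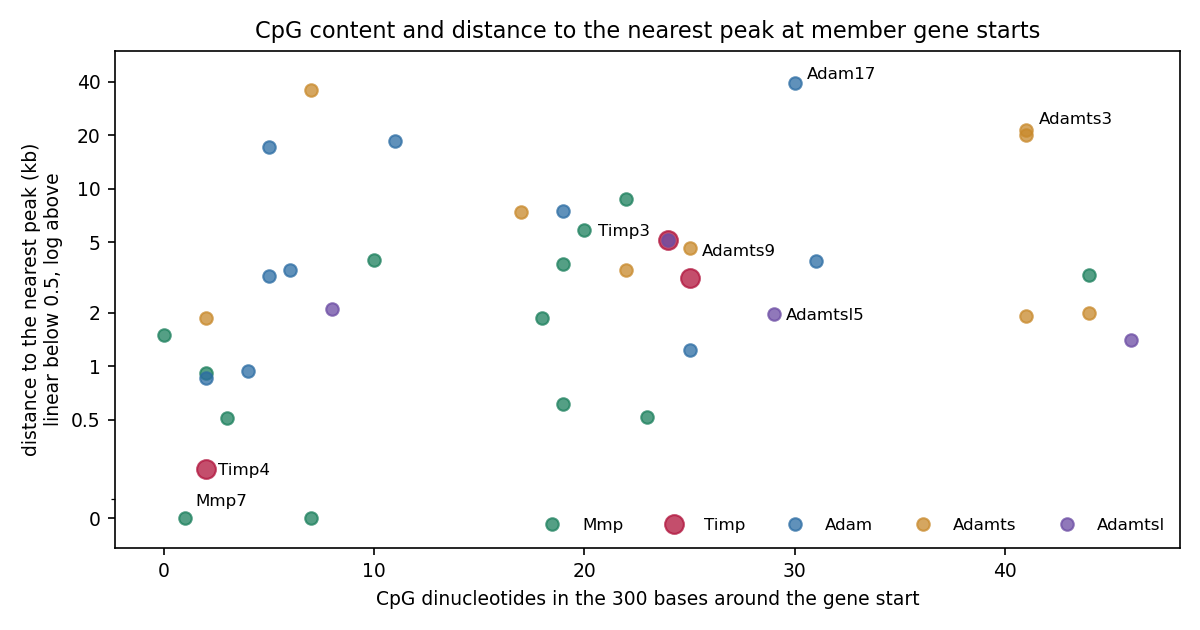
Each point is 1 of the 39 start windows of 35 member genes, with its number of CpG in 300 bases on the x axis and the distance in kb to the nearest peak of any gene on the y axis, coloured by family. The points at a distance of 0 are the Mmp7 starts, and all windows with 15 or more CpG lie above 0.

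Between the ages, few member peaks passed the test in the fit over peaks. Of the 351 member peaks with enough reads to test, 1 was higher at P14, at Adamtsl5, and 6 were lower, at Timp3, Adam7, Adamts9, Adamts3, Adamts19 and Adam18. Values are CPM, reads scaled to a common total of reads in peaks with TMM factors, and the test was edgeR's quasi-likelihood F test over 96768 peaks with Benjamini-Hochberg adjustment and a threshold of 0.05. The members' shares were 0.285% higher and 1.71% lower, against 0.105% and 2.45% over all tested peaks, so the share called lower was not above the background and the share called higher rests on 1 peak. The median log2 change (P14 over P1) of the members was 0.01, and that of all peaks was -0.01. A log2 change within 1 either way was seen at 334 of the 351. An unadjusted p under 0.05 was seen at 21 member peaks (5.98%), against 7.6% of all tested peaks. All P14 libraries were above all P1 libraries at 10 member peaks (2.85%, against 4.78% of all peaks) and below them at 20 (5.7%, against 7.11%).

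Capture differed between the libraries, and this touches every comparison of the ages. Total reads ranged from 16284216 to 21512072, and peaks took 11.59% to 13.4% of them at P1 but 17% to 31.33% at P14, with P14 replicate 1 highest. The means were 12.5% ± 0.907 (SD, n = 3) and 22.2% ± 7.9 (SD, n = 3), with an exact two-sided permutation p of 0.1, the smallest that 3 against 3 allows. A median member peak held 14 to 15 reads in a P1 library and 18 to 51 in a P14 library. P1 replicate 1 had 2391 peaks without a read of 101250, against 2 to 125 in the other libraries. It was the highest P1 library at 82.3% of the 2366 peaks called lower and at 4 of the 6 called members, against 37.0% of peaks not called. The part of these library differences in the calls was not tested.

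The calls describe a peak relative to other peaks and depended on that choice. With all regions of the table in 1 fit, edgeR called 0 of 209063 regions (0.0%) and 0 members. An unadjusted p under 0.05 was seen at 48109 regions. Of the peaks alone, 29644 of 96768 had one, and so did 106 of the 351 member peaks. Scaled to the reads between peaks, 7.51% of peaks were called higher and 0.0527% lower, the median over all peaks moved to 1.18 and those of the 5 families to between 1.12 (Adam) and 1.25 (Timp), and 36 member peaks in 26 genes were higher and 1, at Timp3, was lower. Without P14 replicate 1, or without P14 replicate 2, edgeR called 0 peaks, with 6402 and 7707 at an unadjusted p under 0.05, and its smallest adjusted p over the members was 0.214 and 0.0515. Some calls also ended without another library. The Adamts9 call was lost without P1 replicate 1 (edgeR adjusted p = 0.0514) or P14 replicate 3 (0.0655), the Adamts19 call without P1 replicate 1 (0.0523), P1 replicate 2 (0.153) or P14 replicate 3 (0.052), and the Adam18 call without P1 replicate 2 (0.0981), P1 replicate 3 (0.0986) or P14 replicate 3 (0.0626). The Timp3, Adam7 and Adamtsl5 calls held without any 1 P1 library and without P14 replicate 3. The Timp3 call was lost with limma-voom (adjusted p = 0.0541). With the share of reads in peaks as a covariate, edgeR called 0 peaks and 0 members, with 2252 and 6 at an unadjusted p under 0.05. Every P14 library had a larger share than every P1 library, so that fit cannot tell age and share apart. The log2 changes at the 7 called peaks kept their sign in every alternative in which the peak was tested. These peaks were chosen by the same reads and the ages did not overlap at them. Leaving out a library could therefore hardly turn a sign, and the kept signs are no separate support for the calls.

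**Figure D2:**
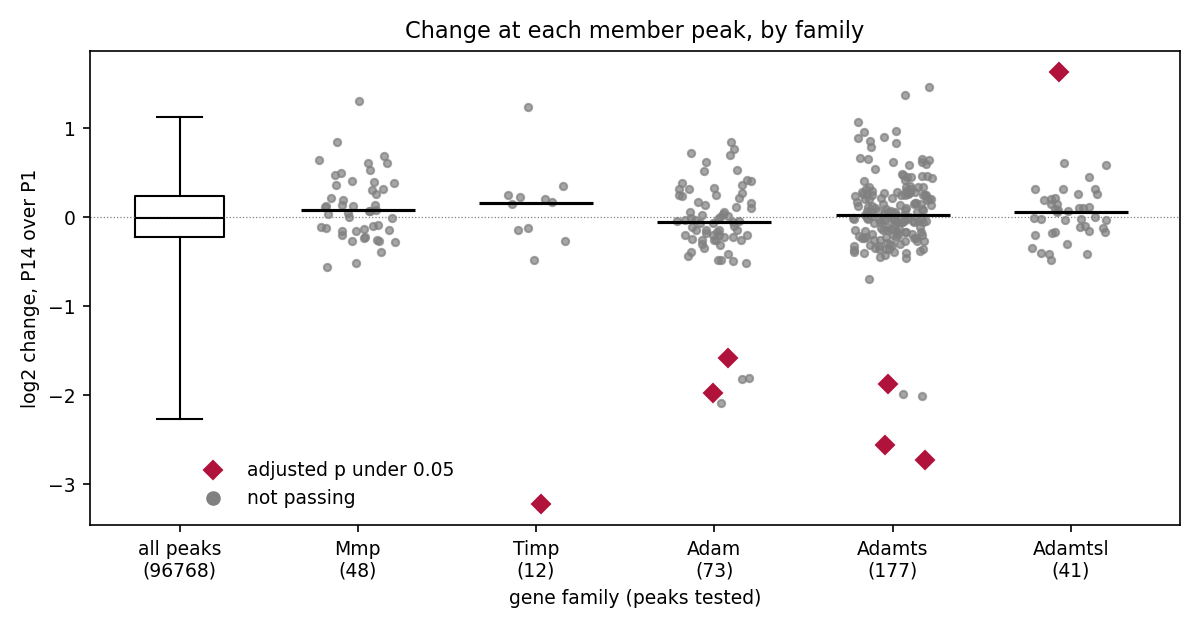
Log2 change (P14 over P1) of each tested member peak by family, with the family median as a black bar, the 7 called peaks as red diamonds, and a box for all 96768 tested peaks (median, quartiles, whiskers from the 1st to the 99th percentile). Family medians lie between -0.06 (Adam) and 0.16 (Timp), and the called peaks lie at -1.58 or below and at 1.63.

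Among the inhibitors, TIMP3, which binds to the matrix and blocks MMPs, ADAM17 and several ADAMTS proteases, had the largest fall of the 351 member peaks. The peak (chr10:86346977-86347749) lies 46.95 kb downstream of the Timp3 start, inside the gene span, and is also assigned to Syn3, a synapsin gene whose span contains it. It held 23, 18 and 10 reads in P1 replicates 1 to 3 and 3, 5 and 3 in P14 replicates 1 to 3. All P14 libraries were below all P1 libraries, although P14 replicate 1 had the most reads in peaks. The level fell from 8.18 ± 3.63 to 0.932 ± 0.459 CPM (SD, n = 3), for a log2 change of -3.22 (SE 0.60, edgeR adjusted p = 0.0242). The neighbouring Timp3 peak, 0.75 kb away (chr10:86345540-86346224), held 10, 15 and 17 reads at P1, against 46, 22 and 16 at P14, and its log2 change was -0.14 (SE 0.38), which turned positive (1.07) with scaling to the reads between peaks. Both peaks belong to the same gene, and 1 passed the test while the other did not. The difference between them was not tested.

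The other TIMP genes gave no call in the fit over peaks. Scaled to the reads between peaks, the first Timp4 peak was called higher (log2 change 2.48, edgeR adjusted p = 0.0258). TIMP2, which helps MMP14 to activate pro-MMP2, had 7 tested peaks with log2 changes from -0.48 to 0.35. The best covered of them (chr11:118330147-118331629) had 14, 42 and 53 reads at P1, against 174, 65 and 53 at P14, for a log2 change of 0.25 (SE 0.31), and the ages overlapped in CPM. TIMP4, known as the TIMP of heart muscle, had 3 peaks, all with positive changes of 0.15 to 1.24. Only the first was centred inside the Timp4 span, and the others lay upstream of the gene start. Its first peak (chr6:115246005-115246643, shared with Syn2 and Gm17482) held 0, 8 and 8 reads at P1, against 53, 22 and 12 at P14, so every P14 library was above every P1 library in CPM (log2 change 1.24, SE 0.60, edgeR adjusted p = 0.682). The family median over 12 tested TIMP peaks was 0.16, with 0 higher and 1 lower. That share of 8.33%, against 2.45% of all tested peaks, rests on 1 peak.

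None of the 48 tested MMP peaks passed the test in either direction, and 29 had a positive change. An unadjusted p under 0.05 was seen at 2 of the 48 (4.17%, against 7.6% of all tested peaks). DESeq2, limma-voom and edgeR's exact test, which also scaled over peaks, called 0 MMP peaks too. Scaled to the reads between peaks, edgeR called 9 of the 48 higher, against 7.51% of all tested peaks. Mmp17 peak 4, Mmp11 peak 3, Mmp9 peak 2 and Mmp2 peak 3 were among them. The gelatinases MMP2 and MMP9, which cut denatured collagen and basement membrane, had 8 peaks with a median log2 change of -0.12. The best covered Mmp2 peak (chr8:92832667-92833503) gave 6.69, 6.77 and 10.55 CPM at P1 and 6.95, 7.52 and 8.30 at P14, and the ages overlapped (log2 change -0.09, SE 0.34). At Mmp9 (chr2:164954070-164955576) the P1 values were 28.31, 13.09 and 16.51 CPM and the P14 values 11.96, 10.63 and 16.96 (log2 change -0.56, SE 0.30), with overlap. The signs of both changes turned positive with scaling to the reads between peaks, to 1.08 and 0.64.

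The membrane-type MMPs act at the cell surface and had 24 tested peaks in 5 genes, with a median of 0.11. MMP14, the activator of pro-MMP2, had its best covered peak (chr14:54435615-54437038) at 16.47, 16.70 and 18.35 CPM at P1 and 14.88, 13.22 and 10.46 at P14. All P14 libraries were below all P1 libraries there, by a log2 change of -0.39 (SE 0.25) that did not pass the test and turned positive (0.85) with scaling to the reads between peaks. MMP17, which is held in the membrane by a lipid anchor, had the MMP peak with the smallest p (chr5:129595095-129595930), with 3, 20 and 15 reads at P1, against 155, 55 and 18 at P14. P14 replicates 1 and 2 were above all P1 libraries while replicate 3 was not, and the log2 change was 1.31 (SE 0.45, edgeR adjusted p = 0.179). For MMP11, a stromelysin by name, peak 3 (chr10:75928091-75928705) had 8.24, 2.26 and 6.42 CPM at P1 and 11.40, 8.30 and 10.10 at P14, all P14 values above all P1 values, with a log2 change of 0.84 (SE 0.39, edgeR adjusted p = 0.617). The 13 tested peaks of the other MMP genes had a median of 0.07.

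Among the ADAM genes, 2 of 73 tested peaks were lower at P14 (2.74%, against 2.45% of all tested peaks) and 0 higher. The family median was -0.06. Both calls were in genes known mainly from the male reproductive tract. ADAM7, an epididymal member without protease activity, has a single peak (chr14:68510732-68511654), with 52, 28 and 24 reads at P1, against 28, 14 and 15 at P14. P1 replicate 1 was the highest library at 26.77 CPM, and all P14 values, 3.89, 3.63 and 5.41 CPM, were below all P1 values. The mean fell from 16.8 ± 8.67 to 4.31 ± 0.962 CPM (log2 change -1.98, SE 0.37, edgeR adjusted p = 0.0242).

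Adam18, a sperm-surface gene, was lower at peak 3 (chr8:24607268-24608111). The reads were 28, 34 and 35 at P1, against 15, 29 and 19 at P14, or 14.41, 15.35 and 16.05 against 2.09, 7.52 and 6.86 CPM. The P1 libraries lay close together, and P14 replicate 1 was the lowest of all (log2 change -1.58, SE 0.39, edgeR adjusted p = 0.0361). The first Adam18 peak (chr8:24603200-24604676), in the same gene, had P14 values above all P1 values, 25.58, 23.86 and 17.68 against 15.44, 16.70 and 15.13 CPM, and did not pass the test (log2 change 0.52, SE 0.24, edgeR adjusted p = 0.628). Over the 16 tested peaks of the Adam genes outside the sheddase and brain groups the median was -0.20.

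The catalytically active sheddases had 42 tested peaks in 8 genes, a median of -0.03 and 0 calls by edgeR's quasi-likelihood test. An unadjusted p under 0.05 was seen at 2 (4.76%, against 7.6% of all tested peaks). DESeq2 called 1, limma-voom 2 and edgeR's exact test 1. ADAM9, which releases HB-EGF, came nearest, with 30, 18 and 18 reads at P1, against 3, 20 and 7 at P14 at its peak 3 (chr8:25003252-25003946). Its P14 values, 0.42, 5.19 and 2.53 CPM, were all below the P1 values of 15.44, 8.12 and 8.26 (log2 change -2.08, SE 0.58, edgeR adjusted p = 0.0616). ADAM32, of the testis, was similar in size at its first peak (chr8:24837148-24838118), with 18, 19 and 21 reads against 6, 10 and 15 (log2 change -1.80, SE 0.53, edgeR adjusted p = 0.0759). ADAM17, the enzyme that releases TNF and ligands of the EGF receptor, had at its best covered peak (chr12:21326591-21327277) 2.57, 8.12 and 5.50 CPM at P1 and 6.95, 12.71 and 7.22 at P14, with overlap (log2 change 0.70, SE 0.41). ADAM12 and ADAM19, both known from heart development, had log2 changes of -0.43 (SE 0.26) and -0.14 (SE 0.32) at their best covered peaks (chr7:133915379-133917508 and chr11:46133537-46135019), and both signs turned positive with scaling to the reads between peaks (0.73 and 0.97). In the ADAMs of the brain that lack an active site, 15 peaks were tested with 0 calls by any of the 4 tests and 1 unadjusted p under 0.05, and Adam11 peak 2 (chr11:102769810-102770676) had 4.63, 4.96 and 8.26 CPM at P1 and 10.84, 10.89 and 8.66 at P14 (log2 change 0.77, SE 0.35, edgeR adjusted p = 0.551).

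The ADAMTS genes hold the most peaks. Of 177 tested, 3 were lower at P14 (1.69%, against 2.45% of all tested peaks) and 0 higher, with a median of 0.03. ADAMTS9, which cuts versican and is needed for the normal development of the heart, was lower at the peak nearest its start. That peak (chr6:92910845-92911884) lies 32.17 kb downstream of the start and held 29, 20 and 18 reads at P1, against 5, 15 and 3 at P14. P14 replicate 2, at 3.89 CPM, was the highest P14 library and was still below the lowest P1 library, at 8.26 CPM. The mean fell from 10.7 ± 3.65 to 1.89 ± 1.74 CPM (log2 change -2.55, SE 0.54, edgeR adjusted p = 0.0255).

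Adamts9 also had the widest spread of changes among its own peaks. Its 12 tested peaks ranged from -2.55 to 0.79 in log2 change, and 3 were below -1. Peak 9 (chr6:92871224-92871837, shared with Gm15737), 72.0 kb from the start, had 19, 10 and 14 reads at P1, against 10, 11 and 2 at P14 (log2 change -2.01, SE 0.55, edgeR adjusted p = 0.0581). Peak 1 (chr6:92773449-92774186), 169.72 kb from the start, had 31, 17 and 18 against 2, 16 and 13 (log2 change -1.98, SE 0.60, edgeR adjusted p = 0.0958). At both, all P14 libraries were below all P1 libraries in CPM. The best covered peak (chr6:92857663-92858896) had a log2 change of -0.39 (SE 0.28), or 0.84 with scaling to the reads between peaks, and of the 9 peaks other than these 3, none had groups that did not overlap.

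**Figure D3:**
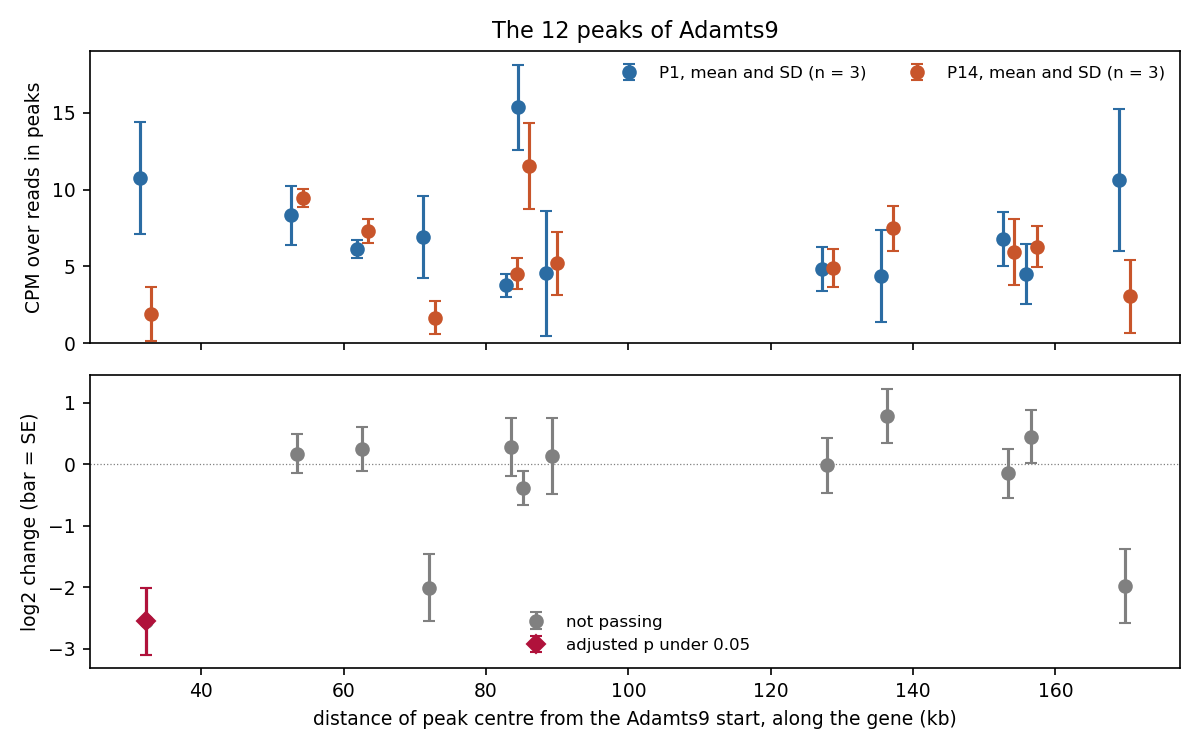
The 12 Adamts9 peaks by distance of their centre from the gene start in kb. The upper panel gives mean CPM and SD (n = 3) at P1 (blue) and P14 (orange), and the lower panel the log2 change with its SE: 3 peaks, at 32.17, 72.0 and 169.72 kb, lie near -2 or below, and the others between -0.39 and 0.79.

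Adamts3 and Adamts19 gave the other ADAMTS calls. ADAMTS3 removes the amino-terminal propeptide of procollagen and activates VEGF-C. Its peak 5 (chr5:89861362-89861925), 21.69 kb downstream of the start, held 32, 10 and 13 reads at P1, against 6, 4 and 7 at P14. P1 replicate 1, at 16.47 CPM, was far above replicates 2 and 3, at 4.51 and 5.96, and all P14 values, 0.83, 1.04 and 2.53 CPM, were lower (log2 change -2.72, SE 0.60, edgeR adjusted p = 0.0269). Without P1 replicate 1 the log2 change was -1.96 and the edgeR adjusted p 0.165. Adamts19, a gene tied to heart valve disease, was lower at peak 4 (chr18:59039819-59040481), with 23, 29 and 14 reads at P1, against 15, 10 and 12 at P14. The lowest P1 library, at 6.42 CPM, was above the highest P14 library, at 4.33 CPM (means 10.4 ± 3.54 and 3.0 ± 1.18 CPM, log2 change -1.87, SE 0.43, edgeR adjusted p = 0.0309).

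The procollagen N-propeptidases ADAMTS2, ADAMTS3 and ADAMTS14 had 49 tested peaks with a median of 0.16, of which 32 were positive and 1, that of Adamts3, was called. Adamts2 peak 23 (chr11:50792349-50793162) had 8, 10 and 7 reads at P1, against 126, 13 and 24 at P14. P14 replicate 1, at 17.52 CPM, carried most of that difference, while replicate 2, at 3.37 CPM, lay within the P1 range of 3.21 to 4.51 (log2 change 1.37, SE 0.50, edgeR adjusted p = 0.242). The best covered Adamts2 peak (chr11:50795915-50797444) had a log2 change of 0.27 (SE 0.26). Adamts14 peak 10 (chr10:61228288-61229038) had 3, 7 and 18 reads against 63, 36 and 21, with overlap in CPM (log2 change 0.97, SE 0.45, edgeR adjusted p = 0.611). ADAMTS7, known to cut the cartilage protein COMP, had 2 peaks with all P14 libraries above all P1 libraries and no call. These were peak 4 (chr9:90182461-90183351), with 1.54, 1.81 and 3.67 CPM against 7.92, 5.70 and 5.77 (log2 change 1.46, SE 0.49, edgeR adjusted p = 0.167), and peak 10 (chr9:90199356-90200319), with 5.15, 7.22 and 3.67 against 14.18, 11.41 and 7.58 (log2 change 1.08, SE 0.37, edgeR adjusted p = 0.173). ADAMTS5, an aggrecan- and versican-cutting protease, had a log2 change of 0.60 (SE 0.35) at its best covered peak (chr16:85898557-85899950), with 15.44, 7.67 and 4.13 CPM against 15.15, 11.93 and 13.35.

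The genes with the most tested peaks are given by their range. Adamts17 had 35 tested peaks, with log2 changes from -0.39 to 0.90 and 15 positive. Adamts2 had 24, from -0.36 to 1.37, and Adamts14 had 20, from -0.40 to 0.97. For Adam12 the 17 tested peaks ranged from -1.82 to 0.53, and for Adamts18 the 15 ranged from -0.43 to 0.66. Adamts20, a versican-cutting protease also with 15 tested peaks, ranged from -0.69 to 0.34. No peak of these 6 genes passed the test.

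The ADAMTS-like proteins lack the protease domain and sit in the matrix, several of them with fibrillin microfibrils. Among their 41 tested peaks, 1 was higher at P14 (2.44%, against 0.105% of all tested peaks), and it was the only member peak called higher. This Adamtsl5 peak (chr10:80340926-80342953) lies inside the gene, 6.51 kb downstream of the start, and spans 2028 bp. It held 14, 17 and 12 reads at P1, against 197, 81 and 37 at P14, or 7.21, 7.67 and 5.50 against 27.39, 21 and 13.35 CPM. All P14 libraries were above all P1 libraries, in the order of their shares of reads in peaks. The mean rose from 6.79 ± 1.14 to 20.6 ± 7.03 CPM (log2 change 1.63, SE 0.32, edgeR adjusted p = 0.0242). The second Adamtsl5 peak, 2.69 kb upstream of the start, held 13, 11 and 13 reads against 46, 23 and 14, for a log2 change of 0.00 (SE 0.38). With all regions fitted and P14 replicate 1 left out, where 0.262% of peaks were called higher and 0.00929% lower, the first Adamtsl5 peak was the only member called (log2 change 1.85, edgeR adjusted p = 0.0406). Adamtsl1 peak 8 (chr4:86341727-86343381) had 15.96, 11.73 and 19.26 CPM at P1 and 28.78, 17.89 and 23.45 at P14, with overlap (log2 change 0.59, SE 0.26, edgeR adjusted p = 0.546).

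**Figure D4:**
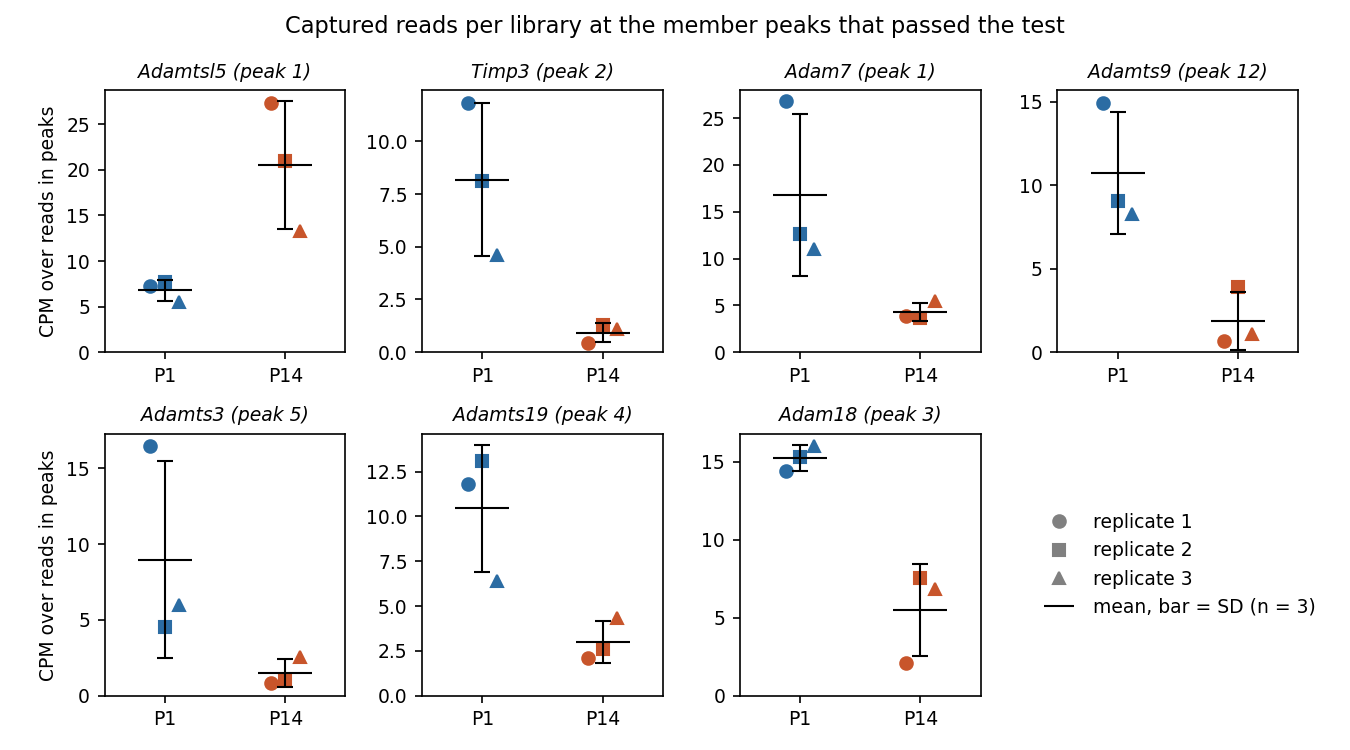
CPM over reads in peaks of each library at the 7 called member peaks, P1 in blue and P14 in orange, with replicate numbers by symbol and the mean and SD (n = 3) as black bars; each panel has its own y axis from 0. The ages do not overlap in any panel, Adamtsl5 is higher at P14, and the other 6 are lower.

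A peak can also be set against the stretches that touch it in the same library, a ratio that the scaling between libraries does not enter. At the Adamtsl5 peak the density of reads was 0.945 ± 0.229 times that of its flanks at P1 (SD, n = 3) and 5.23 ± 1.81 times at P14, so that the peak stood out from its flanks at P14 and not at P1. At the Timp3 peak the ratio went the other way, from 1.97 ± 0.557 to 0.544 ± 0.129, with 1 flank, and at the Adamts9 peak from 2.26 ± 0.484 to 0.833 ± 0.644. The ratios at P14 were below all those at P1 in these 2 genes and in Adamts3, where they went from 4.31 ± 2.86 to 1.49 ± 0.507. For Adam18, Adamts19 and Adam7 the ratios were 3.03 ± 1.11 against 1.90 ± 0.710, 3.28 ± 0.937 against 2.39 ± 0.904 and 5.76 ± 2.80 against 4.27 ± 2.93, with overlap between the ages. The 320 members tested, not called and with a flank had a median ratio of 2.08 at P1 and 3.92 at P14. The 6 peaks called lower had a median ratio of 3.15 at P1 and 1.69 at P14. These ratios come from the reads that chose the calls and are given as a description.

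**Figure D5:**
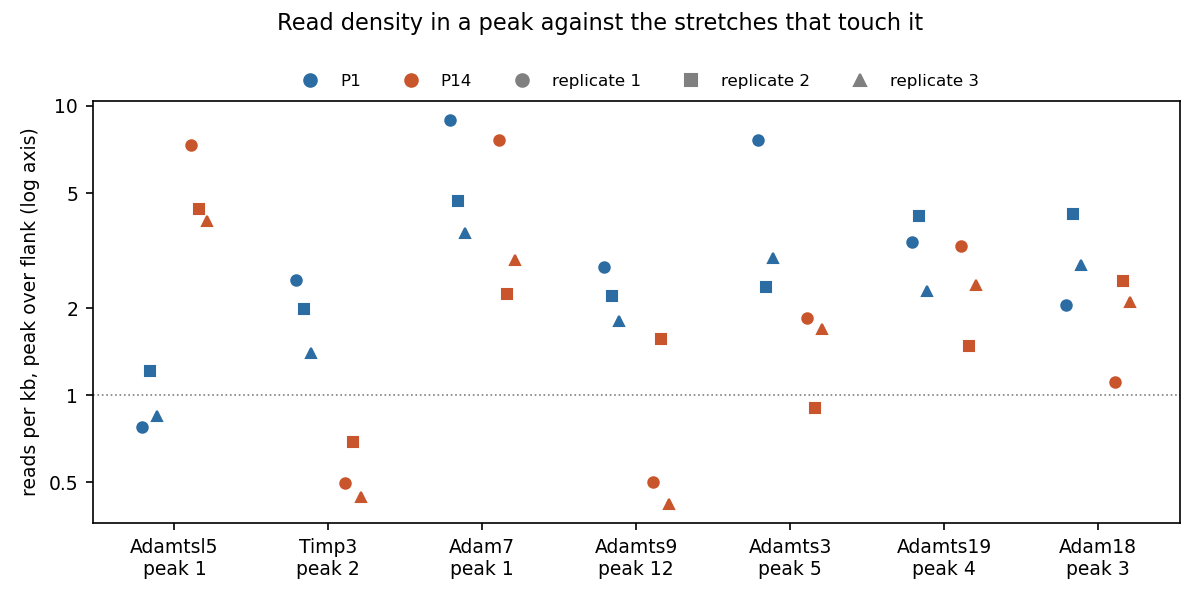
Reads per kb in each called peak divided by reads per kb in the touching stretches of the same library (log axis), with P1 in blue, P14 in orange and replicates by symbol; the dotted line marks equal density. Adamtsl5 lies near 1 at P1 and at 3.99 or more at P14, while Timp3 lies above 1 at P1 and below 1 at P14.

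The members together took 0.291%, 0.291% and 0.296% of the reads in peaks at P1 and 0.358%, 0.319% and 0.301% at P14, in the order of replicates. The P14 libraries were all higher, and the P14 library with the largest share of reads in peaks was also highest here. Scaled to the reads between peaks, the member peaks with the smallest adjusted p were Adamtsl5 peak 1 (log2 change 2.93, edgeR adjusted p = 0.00484), Adamts2 peak 23 (2.78, edgeR adjusted p = 0.00948) and Mmp17 peak 4 (2.62, edgeR adjusted p = 0.0111). By family, the 36 peaks higher under that scaling were 18 of 177 tested Adamts peaks, 9 of 48 Mmp, 4 of 73 Adam, 4 of 41 Adamtsl and 1 of 12 Timp. Of all tested peaks 7.51% were higher there, and the family shares were not tested. Timp3 peak 2 was lower there too, by a log2 change of -2.10 (edgeR adjusted p = 0.0448).

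Genes that work with these proteases were also read from the fit over peaks. Over all tested peaks 0.105% were called higher and 2.45% lower, and 7.6% had an unadjusted p under 0.05. Other metalloproteinases, such as the procollagen C-proteinase Bmp1 and the converting enzyme Ece1, and related genes had 86 tested peaks, 0 higher and 0 lower, with a median of -0.03. An unadjusted p under 0.05 was seen at 2 of them, and DESeq2, limma-voom and edgeR's exact test called 1, 1 and 0. The smallest p was at Papln, listed among the related genes (chr12:83773584-83779594), 68, 87 and 92 reads against 575, 214 and 153 (log2 change 0.72, SE 0.23, edgeR adjusted p = 0.125). Activators and inhibitors, from furin to plasminogen activators, had 129 tested peaks, 0 higher and 1 lower, with a median of 0.02. The lower one lay in Spock1, a testican proteoglycan gene (chr13:57835094-57835812), with 26, 9 and 25 reads against 7, 7 and 12 (log2 change -2.17, SE 0.56, edgeR adjusted p = 0.0423). That is 0.775% of the list lower, against 2.45% of all tested peaks, and the Spock1 call was lost without P1 replicate 1 (edgeR adjusted p = 0.121) and without P1 replicate 3 (0.176). It was also lost when P14 replicate 1 (0.305) or 2 (0.147) was left out. The partners of the ADAMs had 55 peaks with 0 calls by any of the 4 tests, 1 unadjusted p under 0.05 and a median of -0.03, and the smallest p was at Tspan5 (log2 change -0.57, SE 0.26, edgeR adjusted p = 0.553).

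Proteins that the ADAMs cut from the cell surface had 150 tested peaks, 0 higher and 3 lower, with a median of 0.03. The share lower was 2.0% in this fit, not above the 2.45% of all tested peaks. DESeq2, limma-voom and edgeR's exact test called 5, 7 and 8 of the 150, against 2707, 4299 and 3780 of all 96768 peaks. An unadjusted p under 0.05 was seen at 13 of the 150. The neuregulin receptor gene Erbb4 was lower at 1 peak (chr1:68420332-68420962), with 24, 15 and 11 reads against 12, 8 and 5 (log2 change -2.10, SE 0.50, edgeR adjusted p = 0.0332). N-cadherin, the main cadherin between heart muscle cells, was lower at 2 Cdh2 peaks, by -1.90 (SE 0.39, edgeR adjusted p = 0.0251) and -1.84 (SE 0.42, edgeR adjusted p = 0.0297). Of these 3 calls, 0 remained without P14 replicate 1 or P14 replicate 2, and 1 without P1 replicate 1, P1 replicate 2 or P14 replicate 3. Without P1 replicate 3, 2 remained. The Erbb4 call held only without P1 replicate 3 (edgeR adjusted p = 0.0377), and was lost without P1 replicate 1 (0.169). Matrix proteins that the MMPs and ADAMTS proteases cut had 207 tested peaks, 0 higher and 0 lower, with a median of 0.01. Of these 8 had an unadjusted p under 0.05 (0 calls by DESeq2, 1 by limma-voom, 0 by edgeR's exact test), and the smallest p was at Vwf, the substrate of ADAMTS13 (log2 change -2.05, SE 0.63, edgeR adjusted p = 0.104). Genes that mark heart cell types were read in the same way. Of the cardiomyocyte markers, 10 of 65 tested peaks were lower (9 in Ryr2 and 1 in Ttn) and 0 higher, 15.4% lower against 2.45% of all tested peaks. That share rests mainly on Ryr2, 1 of 9 marker genes with a peak. Of these 10 calls, 1, in Ryr2, remained without P1 replicate 1, and 1, in another Ryr2 peak, without P14 replicate 3. Without P1 replicate 2 or P1 replicate 3 there remained 4, and without P14 replicate 1 or P14 replicate 2 there remained 0. Among the 65 cardiomyocyte marker peaks 22 had an unadjusted p under 0.05, against 7.6% of all tested peaks, and the median log2 change was -0.167. DESeq2, limma-voom and edgeR's exact test called 10, 12 and 12 of the 65. The markers of fibroblasts (14 peaks), endothelium (51), smooth muscle (28) and blood (17) had 0 calls in either direction. Of these, 0, 3, 1 and 2 had an unadjusted p under 0.05. Lists this small cannot be told apart from the 2.45% called lower over all peaks. The cell type lists were not tested against each other. DESeq2 and edgeR's exact test called 0 in these 4 lists and limma-voom 1, in the endothelial one. Whether cell makeup bears on the member peaks was not tested.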

How the data were processed

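Read counts of 6 libraries were used as deposited, as whole numbers for each region with no scaling by the authors. BWA, MACS, bedtools and edgeR 3.2.4 are named in the submitters' processing notes, with GRCm38 (mm10) as the build. How peaks were called, on single or pooled libraries, and how duplicates were handled is not given in the sources used here.

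No column marks peaks. Regions touch and alternate between short dense peaks and long stretches, and peaks were inferred from borders and gene names, with read density where these did not settle it. No region had a mean under 10 reads per library. Counts of 101250 peaks were tested with edgeR 4.0.16 in R 4.3.3 by the quasi-likelihood F test, with TMM factors over peaks, filterByExpr on total reads, age as the only term, and adjustment by Benjamini-Hochberg over all 96768 peaks kept. Each SE was computed as the absolute log2 change over the root of F. DESeq2 1.42.0, limma-voom (limma 3.58.1), edgeR's exact test, other scalings, filters and left-out libraries were alternatives. The fit was tested on simulated counts of peaks alone, with changes planted only in better covered peaks. That test covers neither the median depth of a member peak, 22.67 reads per library, nor the choice of scaling. P-values measure the spread between these libraries only.

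Peaks named singly were those called, the 10 in each direction with the smallest p, the best covered peak of each Timp gene and of Mmp2, Mmp9, Mmp14, Adam10, Adam12, Adam17, Adam19, Adamts1, Adamts2, Adamts5 and Adamts9 (Adam10 and Adamts1 gave no peak), and the 5 genes with most tested peaks (Adamts20 ties with the last). The Mmp7 peak, the second Adamtsl5 peak, the start distances and the flank ratios were added after the values were seen. Lists of partner genes and of cell markers were described by counts and medians. The members and lists were chosen with earlier results of these data known. Start sequences are RefSeq's. No transcript structure was used, so peaks were not assigned to exons, introns or UTRs.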

Additional observations from a re-analysis of the deposited data

How the results depend on the processing

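The 7 member calls (1 higher, 6 lower) and the 2468 calls over all peaks (102 higher, 2366 lower) changed with the scaling, the model and the libraries, and the cause was not tested. Over all peaks and over members the calls numbered 0 and 0 with all regions in 1 fit, 7316 and 37 scaled to the reads between peaks, 4299 and 10 with limma-voom, 3780 and 11 with edgeR's exact test, 782 and 5 without TMM factors, and 523 and 1 with both libraries numbered 1 left out. With only the peaks that carry a gene name they were 1449 and 7, and with all regions in 1 fit but P14 replicate 1 left out 2028 (of regions, not peaks) and 1. With the share of reads in peaks as a covariate they were 0 and 0, in a fit that cannot tell age and share apart. Leaving out 1 library gave 0 to 1656 calls over all peaks and 0 to 7 over members, with 0 and 0 without P14 replicate 1 or 2, 769 and 4 without P1 replicate 1, 745 and 4 without P14 replicate 3, and 1493 over all peaks without P1 replicate 2. The filter on reads in peaks, chosen after seeing the data, gave 8 member calls.

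No pairing by replicate number was seen. Deviations of same-numbered libraries correlated at -0.045, -0.044 and 0.025, and those of differently numbered ones at -0.036 to 0.068. With the replicate block 0 peaks and 0 members were called, with 6774 peaks at an unadjusted p under 0.05, against 7355 in the main fit. The block leaves less information on the spread in so small a design, so its 0 calls say nothing about pairing. The difference of 9.72 percentage points in reads in peaks was 5.17 to 12.3 with 1 library left out.

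Among the peaks named singly, signs turned only at ones that were not called. With all regions in 1 fit the log2 changes became 0.28 at Adam12 peak 3, 0.55 at Adam19 peak 2, 0.36 at Adamts9 peak 7, 0.36 at Mmp14 peak 1, 0.63 at Mmp2 peak 1, 0.17 at Mmp9 peak 3 and 0.60 at Timp3 peak 1. Scaled to the reads between peaks the same peaks gave 0.73, 0.97, 0.84, 0.85, 1.08, 0.64 and 1.07. With all regions and P14 replicate 1 left out, Adam12 peak 3 gave 0.19, Adam19 peak 2 gave 0.57, Adamts9 peak 7 and Mmp9 peak 3 gave 0.00, Mmp2 peak 1 gave 0.46 and Timp3 peak 1 gave 0.28. Without TMM factors Adam19 peak 2 and Timp3 peak 1 gave 0.01 and Mmp2 peak 1 gave 0.06. With the covariate Adam19 peak 2 gave 0.28, Adamts9 peak 1 gave 0.32, Mmp2 peak 1 gave 0.05, Adamts2 peak 25 gave -0.14 and Timp2 peak 4 gave -0.13. With 1 library left out, Timp2 peak 4 ranged from -0.08 (without P1 replicate 1) to 0.62, Mmp2 peak 1 from -0.19 to 0.17 (without P1 replicate 3, and 0.00 without P14 replicate 1), and Adam19 peak 2 from -0.36 to 0.11 (without P14 replicate 1). Timp3 peak 1 gave 0.01 without P1 replicate 3, and Timp2 peak 4 gave -0.26 without both libraries numbered 1. The Timp3 peak 2 was too sparse to test without both libraries numbered 1. A median member peak held 14 to 15 reads in a P1 library, and the size of change detectable at that depth was not computed for the members.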
